A study of Homo sapiens with 8 samples.

Results

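The genes described here are 9 transcription factors of the basic helix-loop-helix (bHLH) class, namely ATOH8, the inhibitors of differentiation ID1, ID2, ID3 and ID4, and the Hairy-related repressors HES1, HES4, HEY1 and HEY2. They were picked by name as genes whose RNA is commonly read as output of bone morphogenetic protein (BMP) and Notch signaling, and they are 9 of the 69215 genes listed in each library. Their levels in the 4 groups were already known when they were picked, so their changes below are a description and carry no test of their own. All 9 are protein-coding genes with a count entry in all 8 libraries, and 7 of them had enough reads to enter the fit across genes. HEY1 and HEY2 did not.

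The RNA came from G401, an established human cell line grown from a kidney rhabdoid tumor. It has no SMARCB1, which is a subunit shared by most SWI/SNF complexes that remodel chromatin. A pair of G401 derivatives was used, in which a Tet-On system turns on SMARCB1 in the first and GFP, the control, in the other when doxycycline (Dox) is present. Treatment lasted 12 h, with Dox at 0.1 μg/ml or with dimethylsulfoxide (DMSO), the solvent, alone, which gave the groups SMARCB1 DMSO, SMARCB1 Dox, GFP DMSO and GFP Dox with 2 libraries each. The comparison of Dox with DMSO in the SMARCB1 line asks what SMARCB1 re-expression does to RNA levels, and the same comparison in the GFP line gives the background of Dox and of induced expression. Both lines lack the endogenous gene and carry a Tet-On construct, so the GFP groups are not a normal tissue. Whether each line is 1 clone, and whether libraries of a group came from separate cultures, was not stated beyond the experiments having been done in duplicate, so the p-values measure the spread between these libraries only.

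bHLH activators bind DNA as pairs with the widely expressed E proteins. ID proteins have the helix-loop-helix but no DNA-binding basic region, and they hold E proteins in pairs that do not bind DNA. HES and HEY proteins bind DNA as repressors and are the classical targets of the Notch receptors, whose cleaved intracellular part acts on DNA through RBPJ. Groucho (TLE) proteins are partners of the HES proteins. BMP ligands act through SMAD1, SMAD5 and SMAD9, which switch on the ID genes and, in several cell types, ATOH8.

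Library totals ran from 29632090 to 37597477 counts assigned to genes, with at least 1 count for 20839 to 22180 genes, and the mitochondrial genome gave its largest share in SMARCB1 DMSO, 27.9% and 23.9% of the counts, against 18.9% to 22.9% in the other 6 libraries. Its part in the results below was not tested. The induced gene SMARCB1 followed the labels, with 30474 and 29383 counts under Dox in the SMARCB1 line, 10 and 21 counts without Dox in the same line and 0 counts in the 4 GFP libraries. VIM, a mesenchymal filament gene of these cells, had 22088 to 45130 counts per library. The 9 markers of blood and endothelial cells checked summed to only 100 to 147 counts per library, most of them from the globin gene HBB (84 to 121), and CD3E had 0 counts throughout. In these bulk libraries a gene carried by fewer cells and a gene with less RNA per cell cannot be told apart.

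Regulatory sequence near the start of the genes is shown first for HES1 and HES4, the members whose upstream windows hold, on the gene's own strand, the letters TGGGAA, the core of the element read by RBPJ. Sequences and starts are from RefSeq on GRCh38.p14, and capitals mark TGGGAA. The HES1 window is the 250 bases before the start, chr3:194135898-194136147 on the plus strand. The HES4 stretch is 30 bases around its match, chr1:1000156-1000185 on the minus strand. Part of it, with all but the first of its capital letters, lies in an annotated exon of another HES4 transcript.
HES1: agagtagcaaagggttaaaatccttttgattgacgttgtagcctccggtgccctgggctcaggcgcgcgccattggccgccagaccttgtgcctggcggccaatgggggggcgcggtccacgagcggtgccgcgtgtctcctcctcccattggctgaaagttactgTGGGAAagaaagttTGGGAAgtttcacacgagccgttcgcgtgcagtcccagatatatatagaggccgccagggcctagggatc
HES4: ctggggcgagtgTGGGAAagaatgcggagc

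HES1 held TGGGAA at 84 and at 70 bases before its start, and HES4 held it at 76 bases. The 175 bases of the HES4 window ahead of the annotated exon held no match. HEY2 held it on the opposite strand, 213 bases before its start. With both strands searched, 20.8% of the 35116 upstream windows of 250 bases in the RefSeq table held TGGGAA at least once and 2.9% held it 2 or more times. CACNAG, the N-box bound by HES repressors, was found 3 times upstream of HES1, the nearest 58 bases before the start, and 1 time upstream of ID1, 140 bases before it, against 32% of all windows with a match. GGCGCC, a GC-rich element bound by BMP-activated SMADs, was found in the HEY2 window only, 38 bases before the start, against 16.4% of all windows. The windows of ATOH8, ID2, ID3 and ID4 held none of these letters, and HEY1 had no entry. The ID1 window began inside annotated exon, and only the first 21 bases of the ID2 window lay ahead of one. A match is a description and is not evidence of binding, and a window without a match says nothing about the factor.

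ATOH8, a bHLH factor of the Atonal family, lies on the plus strand of chromosome 2 (chr2:85751344-85791383, GRCh38). It is the member with qPCR primers in the study's list, in exon 1 (chr2:85754933-85754953) and exon 2 (chr2:85764079-85764100) of the transcripts that hold both. The study's qPCR read nuclear and cytoplasmic fractions, and for some transcripts polysome fractions, after a longer induction, and not total RNA at 12 h. Its text names ATOH8 in the primer list only, so the fractions in which ATOH8 was read are not stated. The primers are printed here because they place what that assay reads.
ATOH8 forward primer: agccttcgaggcgctcaggaa
ATOH8 reverse primer: tcggcactgtagtcaaggtcag

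ATOH8 had the largest fold change of the members in the SMARCB1 line and the fewest reads of those tested. The SMARCB1 DMSO libraries held 3 and 12 counts of it, the SMARCB1 Dox libraries 57 and 69, the GFP DMSO libraries 9 and 15, and the GFP Dox libraries 8 and 9. As CPM (counts per 1000000 of the TMM-adjusted size of each library), these were 0.103 and 0.364, 1.60 and 1.97, 0.267 and 0.391, and 0.26 and 0.246. Both SMARCB1 Dox libraries lay above the other 6, which lay close to each other and near the limit of detection (3 counts, or 0.0782 to 0.103 CPM depending on the library). The log2 fold change in the SMARCB1 line was 2.88 ± 0.487 (standard error), a change from 0.233 ± 0.185 to 1.79 ± 0.264 CPM (SD, n = 2). Summed over libraries, 126 counts stood against 15, a ratio of 7.4 with an exact 95% interval of 4.32 to 13.6 that covers counting error only. The log2 fold change between the GFP groups was −0.39 ± 0.573. ATOH8 passed the expression filter (0.292 CPM in 2 libraries) in 4 libraries, of which 2 were in groups other than SMARCB1 Dox.

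The plot of CPM by library shows these values for the 7 members in the fit, with each gene on its own scale.

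**Figure D1:**
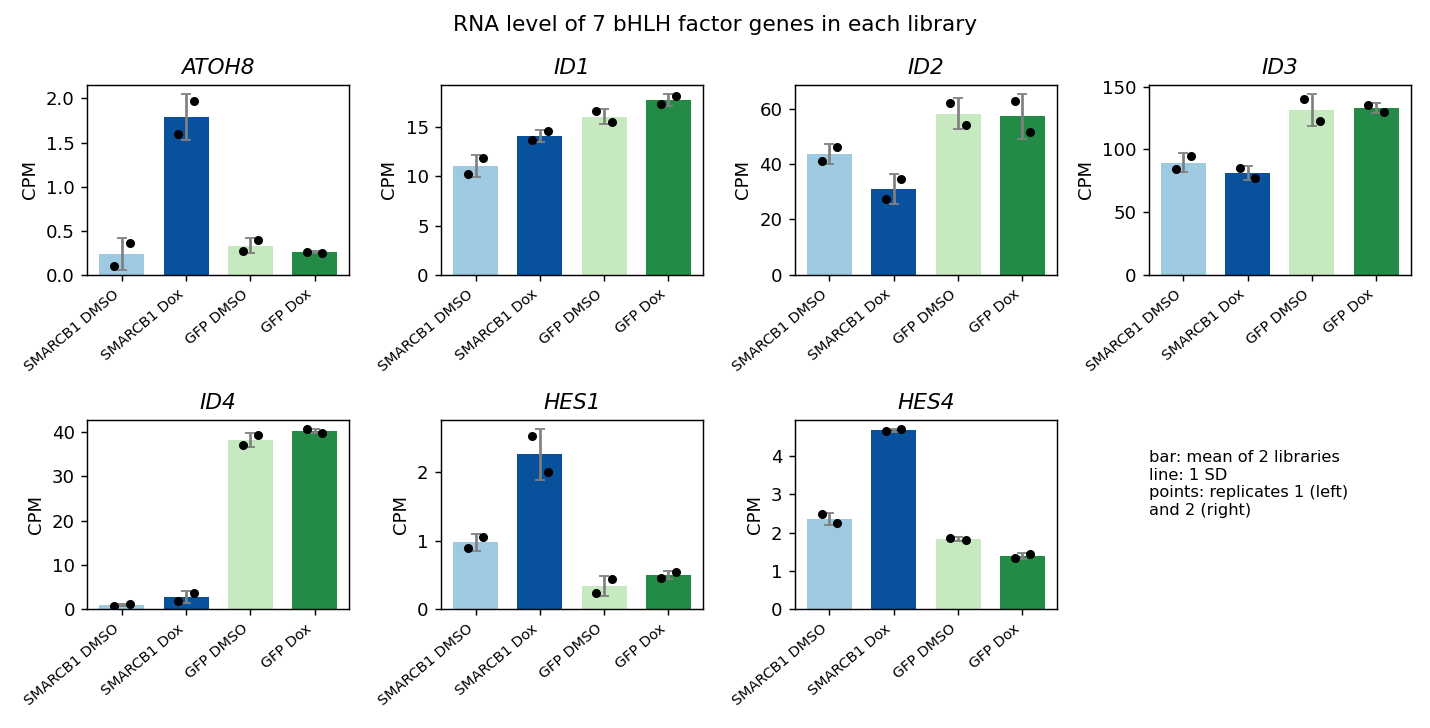
RNA level in CPM (linear axis from 0) of the 7 bHLH factor genes with enough reads, by group. Bars are means of 2 libraries, lines are 1 SD and points are the libraries. ATOH8, HES1 and HES4 stand highest in SMARCB1 Dox, ID1, ID2 and ID3 stand highest in the GFP groups, and ID4 sits at 37.0 to 40.6 CPM in the GFP line against 0.823 to 3.69 CPM in the SMARCB1 line.

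The ID genes moved in different directions in the SMARCB1 line. ID4 (chr6:19837370-19842197, plus strand), the ID family member best known from neural development, had 24 and 40 counts in SMARCB1 DMSO and 64 and 129 in SMARCB1 Dox, or 0.823 and 1.21 against 1.80 and 3.69 CPM. The SMARCB1 groups did not overlap, but the SMARCB1 Dox libraries lay farther apart from each other than the lower one lay from SMARCB1 DMSO. The log2 fold change was 1.41 ± 0.278, and 193 counts against 64 gave a ratio of 2.66 (exact 95% interval of counting error 1.99 to 3.58). Without SMARCB1 Dox replicate 2 the log2 fold change was 0.80 and was no longer called. In the GFP line ID4 stood at 37.0 and 39.4 CPM with DMSO and at 40.6 and 39.9 CPM with Dox, a log2 fold change of 0.07 ± 0.14.

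ID2 (chr2:8678845-8684461, plus strand), an E protein inhibitor expressed in many lineages, went the other way. It stood at 41.1 and 46.2 CPM in SMARCB1 DMSO and at 27.2 and 34.7 CPM in SMARCB1 Dox, without overlap, and the log2 fold change was −0.50 ± 0.116. The GFP libraries stood at 62.2 and 54.3 CPM with DMSO and at 63.0 and 51.5 CPM with Dox, groups that overlapped, with a log2 fold change of −0.03 ± 0.112. The antisense gene ID2-AS1 shares 145 exon bases with ID2 (6.55% of the ID2 exon bases) and had 128 to 608 counts per library, and since the strand option of the counting was not stated, these reads cannot be told apart with certainty.

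ID1 (chr20:31605283-31606515, plus strand) and ID3 (chr1:23557926-23559501, minus strand) are the ID genes most often used as a readout of BMP signaling. ID1 stood at 10.3 and 11.9 CPM in SMARCB1 DMSO and at 13.7 and 14.6 CPM in SMARCB1 Dox, without overlap. Its log2 fold change of 0.35 ± 0.12 was the smallest among the members with a positive value and did not reach the threshold of the fit. ID3 stood at 84.1 and 94.8 CPM in SMARCB1 DMSO and at 84.9 and 77.2 CPM in SMARCB1 Dox, groups that overlapped, with a log2 fold change of −0.14 ± 0.0895. In the GFP line ID1 stood at 16.6 and 15.6 CPM with DMSO and at 17.4 and 18.2 CPM with Dox (log2 fold change 0.15 ± 0.115), and ID3 at 140.5 and 122.4 CPM against 135.5 and 129.9 CPM (0.01 ± 0.0881).

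The HES genes were both higher in SMARCB1 Dox than in SMARCB1 DMSO. HES4 (chr1:998962-1000172, minus strand), a HES1 relative present in humans and absent from mice, had 72 and 74 counts in SMARCB1 DMSO and 165 and 164 in SMARCB1 Dox, or 2.47 and 2.24 against 4.64 and 4.69 CPM. The spread within these groups was small beside the gap between them, and the log2 fold change was 0.99 ± 0.205. GFP libraries with Dox, at 1.33 and 1.45 CPM, lay below those with DMSO, at 1.87 and 1.80 CPM, with a log2 fold change of −0.39 ± 0.237.

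HES1 (chr3:194136148-194138732, plus strand), the best studied Notch target and a repressor of neuronal and endocrine bHLH activators, had 26 and 35 counts in SMARCB1 DMSO and 90 and 70 in SMARCB1 Dox, or 0.892 and 1.06 against 2.53 and 2.003 CPM. The SMARCB1 groups did not overlap, the log2 fold change was 1.21 ± 0.329, and 160 counts against 61 gave a ratio of 2.31 (exact 95% interval of counting error 1.71 to 3.16). With GFP, HES1 had 8 and 17 counts with DMSO and 14 and 20 with Dox, or 0.237 and 0.443 against 0.455 and 0.547 CPM. These groups also did not overlap, with a log2 fold change of 0.54 ± 0.45, a standard error nearly as large as the value.

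HEY1 and HEY2, Notch targets of the endothelium and heart, were at the edge of what these libraries can show. HEY1 had 1 count in all 8 libraries together, in SMARCB1 Dox replicate 1, or 0.00367 CPM over all libraries. HEY2 had 2 counts, 1 of them in a SMARCB1 Dox and 1 in a GFP DMSO library, or 0.00734 CPM. Both lay under the floor of 3 counts in each library, so a difference between groups was not detectable at this depth.

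In the fit across all genes (edgeR quasi-likelihood test, with a gene called where its Benjamini-Hochberg adjusted p was under 0.05), 14% of the 15931 genes tested were called between SMARCB1 Dox and SMARCB1 DMSO, 8.33% higher and 5.69% lower. Of the 7 members tested, 4 were called higher (ATOH8, ID4, HES1 and HES4), 1 was called lower (ID2), and ID1 and ID3 were not called. The median log2 fold change of the 7 was 0.99, where that of all genes was −0.004. Since the members were picked with these values in view, nothing is read from their share. The libraries of the groups did not overlap for 6 of the 7, with 5 higher and 1 lower in SMARCB1 Dox, where 25.9% of all genes had no overlap and were higher and 25.2% had none and were lower.

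In the GFP line, 0 genes were called, members included (0% of all genes). In the same edgeR fit 266 genes (1.67%) had an unadjusted p under 0.05 there, and DESeq2 also called 0. The member groups did not overlap for ID1, ID4 and HES1, higher with Dox, and for ATOH8 and HES4, lower with Dox, where 13.6% of all genes had no overlap and were higher and 13.2% had none and were lower. The difference between the Dox effects of the lines, tested as a contrast of its own, was called for 4.71% of all genes (3.07% higher and 1.64% lower) and for 3 of the 7 members, all higher. It was 3.27 ± 0.763 on the log2 scale for ATOH8, 1.38 ± 0.313 for HES4 and 1.34 ± 0.313 for ID4. It was not called for HES1, at 0.67 ± 0.567, ID1, at 0.20 ± 0.166, ID3, at −0.16 ± 0.126, and ID2, at −0.47 ± 0.162.

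**Figure D2:**
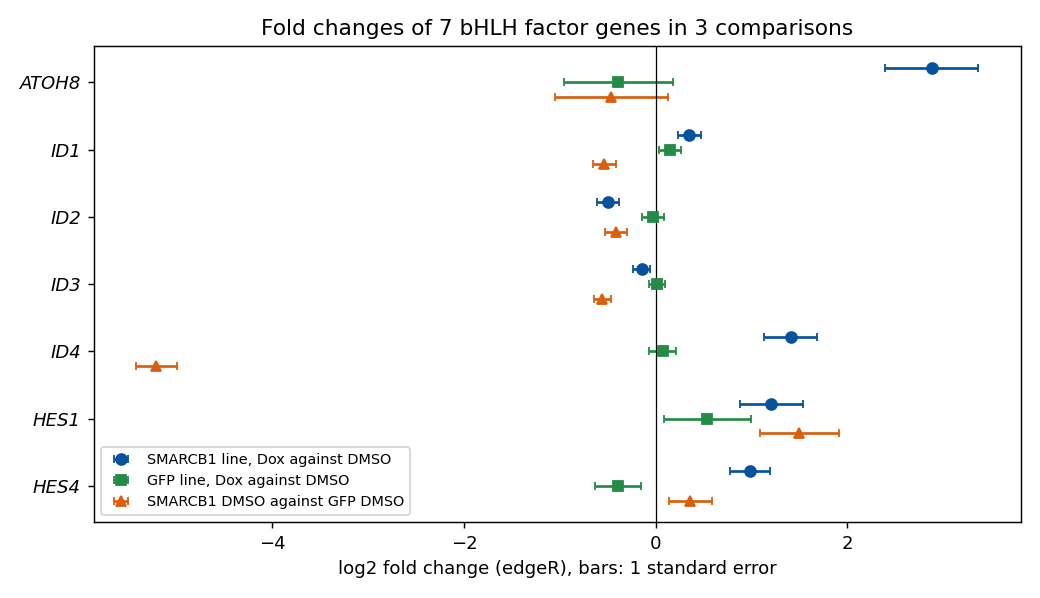
Log2 fold changes of the 7 bHLH factor genes in the edgeR fit, with bars of 1 standard error, with SMARCB1 Dox set against SMARCB1 DMSO (circles), GFP Dox against GFP DMSO (squares) and SMARCB1 DMSO against GFP DMSO (triangles). ATOH8 stands out in the SMARCB1 line at 2.88, and ID4 between the DMSO groups at −5.21.

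Before any Dox was given, the lines already differed in these genes. ID4 stood at 0.823 and 1.21 CPM in SMARCB1 DMSO and at 37.0 and 39.4 CPM in GFP DMSO, a log2 fold change of −5.21 ± 0.213, or 37.0-fold lower in the SMARCB1 line. ID4 in SMARCB1 Dox, at 3.69 CPM in its higher library, was still far under every GFP library. ID1, ID2 and ID3 were lower in SMARCB1 DMSO as well, with log2 fold changes of −0.54 ± 0.119, −0.41 ± 0.114 and −0.55 ± 0.089, and none of these 4 ID genes overlapped between the groups.

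HES1 was higher in SMARCB1 DMSO than in GFP DMSO, at 0.892 and 1.06 CPM against 0.237 and 0.443 CPM, a log2 fold change of 1.50 ± 0.413. HES4 stood at 2.47 and 2.24 CPM against 1.87 and 1.80 CPM, without overlap, with a log2 fold change of 0.36 ± 0.223. ATOH8 overlapped between the lines, at −0.46 ± 0.587, and this value went from −1.65 to 0.12 as single libraries were left out. In this comparison 32% of all genes were called, and 5 of the 7 members were, with 4 lower (the ID genes) and 1 higher (HES1), against 15.7% and 16.3% of all genes. Without overlap between the groups, 4 members were lower and 2 higher, where 31.6% of all genes were lower and 33.1% higher in this way. The DMSO groups of this comparison also serve the Dox comparisons, so the values are set side by side only. Whether the line difference belongs to the constructs or to the cells that carry each cannot be told apart.

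Levels of different genes can be compared only per length, here as CPM per kilobase of annotated exon. In all 4 groups ID3 was the most abundant member, at 59.8, 54.2, 87.9 and 88.7 CPM per kilobase in SMARCB1 DMSO, SMARCB1 Dox, GFP DMSO and GFP Dox, followed by ID2 and then ID1. ATOH8 was the lowest of the 7, at 0.0251, 0.192, 0.0354 and 0.0272 CPM per kilobase. ID4 changed its place. It followed ID1 in both GFP groups, at 9.87 and 10.4 CPM per kilobase, ahead of HES4 and HES1, and in both SMARCB1 groups it came after HES4 and HES1, at 0.263 and 0.709 CPM per kilobase.

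HES4 stood at 2.11, 4.17, 1.64 and 1.24 CPM per kilobase in the same order of groups, and HES1 at 0.474, 1.10, 0.165 and 0.243. No neighbors in these orders overlapped between libraries, although in SMARCB1 Dox the higher ID4 library came close to the lower HES1 library. The order was the same with the longest annotated transcript as the length. ATOH8 has 9296 exon bases over 5 annotated transcripts, the most among the members in the fit, which lowers its value on this scale.

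**Figure D3:**
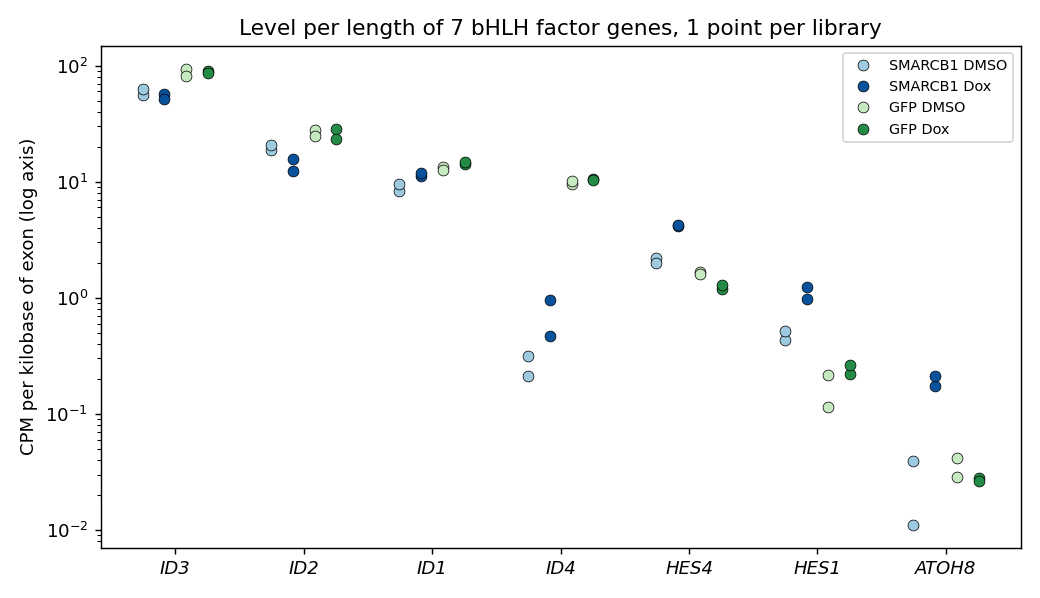
Level per length of the 7 members in the fit, as CPM per kilobase of exon on a log axis, with 1 point per library and the groups by color. The genes span from about 100 for ID3 in the GFP line to about 0.01 for ATOH8 in SMARCB1 DMSO, and ID4 falls below HES4 and HES1 in the SMARCB1 line.

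For the most abundant member of each family, the tested genes at 5 CPM or more whose profile over the 8 libraries was most like it were found among 9944 genes, by the root mean square difference of centered log2 CPM. For ATOH8, whose own profile had a root mean square of 1.18, they were EXPH5 at 0.416, KSR1 at 0.446 and FZD7 at 0.531, all highest in SMARCB1 Dox, at 25.4, 30.2 and 30.4 CPM. For HES4, at 0.635, they were SLC31A2 at 0.128, FAM107B at 0.143 and JDP2 at 0.16. For ID3, at 0.33, they were TCTA at 0.0586, LYRM9 at 0.0609 and RBM8A at 0.065. These are descriptions of likeness over 8 libraries that share groups. No gene was sought for HEY1 or HEY2.

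The other genes of the same pathways were taken from lists by role, 159 genes in all, of which 104 were tested. In the SMARCB1 line 24 of them were called higher with Dox and 10 lower, 32.7% against the 14% of all genes, with a median log2 fold change of 0.11. The lists were put together with earlier results of these data known, so this share is a description. Among the partners and relatives of the members, 2 of the 6 other bHLH genes tested (HES2, HES6, HES7, BHLHE40, BHLHE41 and ATOH7) were called, in opposite directions. BHLHE40, a circadian bHLH repressor, rose from 11.3 ± 0.616 to 17.9 ± 2.08 CPM (log2 fold change 0.67, edgeR adjusted p = 0.000229), and its relative BHLHE41 fell from 117 ± 5.22 to 80.4 ± 5.63 CPM (−0.54, edgeR adjusted p = 7.73e-05).

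Of the 3 E proteins, the partners that ID proteins hold, TCF4 fell from 18.4 ± 1.74 to 10.5 ± 0.738 CPM (−0.80, edgeR adjusted p = 0.000201). TCF3 and TCF12 were not called, at log2 fold changes of 0.13 and 0.12. Only 4 of 28 tissue bHLH activators had enough reads to be tested. HAND1, a factor of heart and extraembryonic mesoderm, was called, from 4.15 ± 0.39 to 7.34 ± 0.186 CPM (0.82, edgeR adjusted p = 0.00399).

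On the BMP side, 2 of 8 ligands tested were called in the SMARCB1 line. BMP6 fell from 12.2 ± 1.17 to 5.36 ± 0.591 CPM (−1.18, edgeR adjusted p = 7.96e-06), and GDF5, a ligand of joint development, rose from 4.12 ± 0.689 to 6.45 ± 1.69 CPM (0.64, edgeR adjusted p = 0.039), a call that held in 10 of 13 alternatives and not with DESeq2. Of 12 receptors and SMADs, 3 were higher and 2 lower. ENG, the co-receptor endoglin, had 9 and 6 counts in SMARCB1 DMSO and 88 and 72 in SMARCB1 Dox, a log2 fold change of 3.21 ± 0.418 (edgeR adjusted p = 1.4e-05). ENG is also abundant in endothelial cells, and beside it the endothelial gene CDH5 had 5 and 7 counts against 16 and 9, VWF 6 and 5 against 6 and 19, and PECAM1 at most 3 in any library. The libraries came from cultures of the G401 tumor cell line, and the part of any such cells in the value was not tested. The type I receptor BMPR1A and the activin type II receptor ACVR2B each fell by 0.29 on the log2 scale, calls that held in 9 and 8 of 13 alternatives and were lost with library totals and with only the 4 SMARCB1 libraries in the fit. BMPR2, the receptor with the highest level per length beside BMPR1A, was not called, at 0.10.

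Among 13 BMP antagonists and feedback inhibitors, 5 were called higher and 2 lower, and FSTL1 and BAMBI had the smallest p of all list genes between SMARCB1 Dox and SMARCB1 DMSO. FSTL1, a secreted follistatin-like protein, stood at 46.5 and 42.1 CPM in SMARCB1 DMSO and at 127.4 and 107.5 CPM in SMARCB1 Dox, and rose by 1.41 ± 0.0934 on the log2 scale (edgeR adjusted p = 3.14e-09). FSTL3, which binds activins, rose by 1.07 ± 0.194 (edgeR adjusted p = 0.000558), and NBL1, a secreted BMP antagonist, by 0.49 ± 0.134 (edgeR adjusted p = 0.0152), a call that held in 11 of 13 alternatives. BAMBI, a decoy receptor that is itself a common BMP and TGF-beta target, stood at 64.9 and 58.6 CPM in SMARCB1 DMSO and at 30.1 and 29.1 CPM in SMARCB1 Dox, and fell by 1.06 on the log2 scale (edgeR adjusted p = 5.29e-08). Of 5 other BMP target genes tested, 3 were called higher and 0 lower, namely the homeobox genes DLX3 (0.58) and MSX1 (0.31) and the zinc finger factor GATA2 (0.39). DLX3 was called in 8 of 13 alternatives and lost the call without any 1 of the 4 SMARCB1 libraries, GATA2 was called in 11 and MSX1 in 12. BAMBI and ID2 were thus lower, MSX1, DLX3, GATA2, ATOH8 and ID4 higher, and ID1 and ID3 not called, in the same libraries. The difference of the Dox effects between the lines was called for BAMBI, ATOH8 and ID4. It was not called for ID1, ID2, ID3, MSX1, DLX3 and GATA2.

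**Figure D4:**
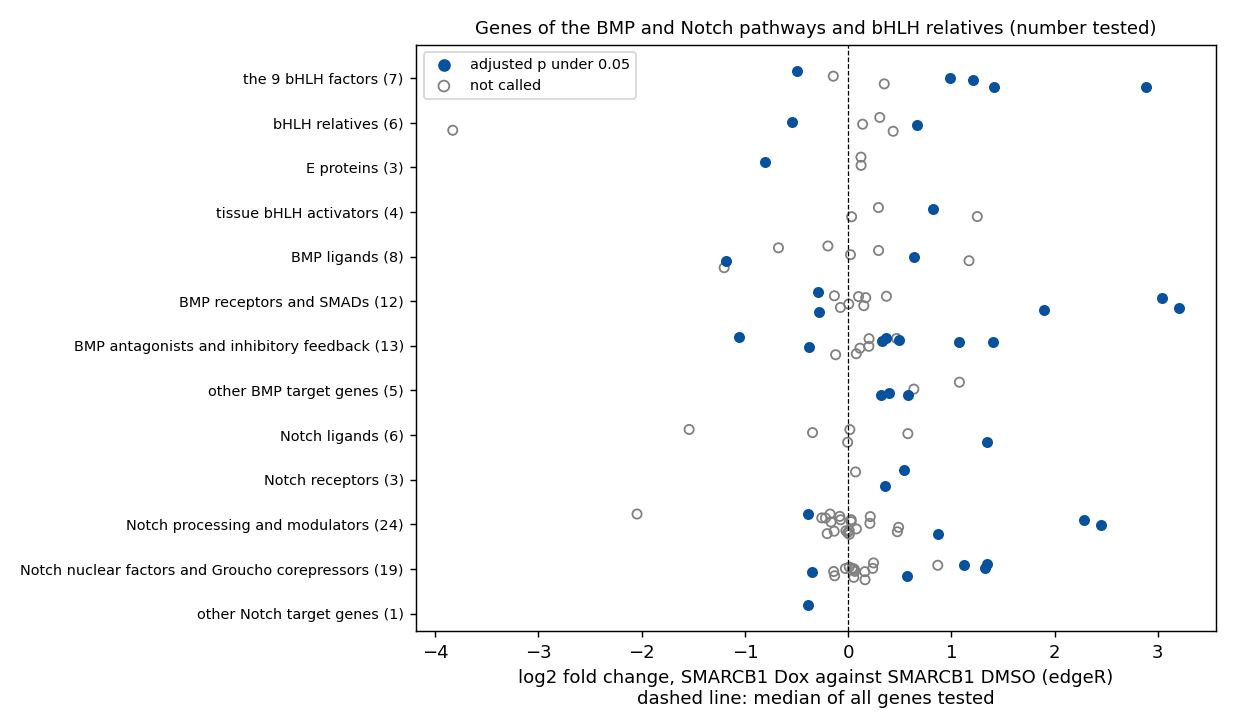
Log2 fold change of SMARCB1 Dox against SMARCB1 DMSO (edgeR) for each tested gene of the lists by role, 1 row per list with the number tested in brackets. Filled points are genes called at an adjusted p under 0.05, open circles are genes not called, and the dashed line is the median of all genes. Calls lie on both sides of the line within most BMP lists, and the Notch receptors and nuclear factors called lie mostly to its right.

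On the Notch side, 2 of the 3 receptors tested were called higher in the SMARCB1 line. NOTCH1 rose from 50.5 ± 9.67 to 73.5 ± 0.448 CPM (0.55, edgeR adjusted p = 0.000925) and NOTCH2 from 355.7 ± 51.2 to 455.3 ± 12.2 CPM (0.36, edgeR adjusted p = 0.0098), although NOTCH2 shares sequence with near-identical NOTCH2NL copies, so its count is uncertain, and its call held in 11 of 13 alternatives. NOTCH3 was not called, at 0.07, and NOTCH4 was outside the fit. Of 6 ligands, DLL4, a ligand best known from endothelium, was called, from 0.77 ± 0.317 to 1.94 ± 0.476 CPM (1.34, edgeR adjusted p = 0.016), but not without SMARCB1 DMSO replicate 2, without SMARCB1 Dox replicate 1 or with DESeq2.

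Of 24 genes of Notch processing and modulation, 3 were higher and 1 lower. DTX4 rose from 0.933 ± 0.00988 to 4.57 ± 0.643 CPM and DTX3L from 39.7 ± 0.0341 to 72.5 ± 4.0 CPM, both of the Deltex ubiquitin ligase family, and POGLUT1, which adds glucose to the receptors, fell by 0.39 on the log2 scale, a call that held in 11 of 13 alternatives. Of 19 nuclear factors and corepressors, 4 were higher and 1 lower. The coactivator MAML2 rose by 1.13 ± 0.252 (called in 12 of 13 alternatives), the acetyltransferase KAT2B by 1.32 ± 0.191, and the Groucho corepressors TLE3 and TLE2 by 1.35 ± 0.415 and 0.57 ± 0.19 on the log2 scale, although TLE3 was called in 10 of 13 alternatives and TLE2 in 5, with DESeq2 among those that lost it. RBPJ itself, named after its values were seen, stood at 675.1 and 688.5 CPM in SMARCB1 DMSO and at 480.3 and 593.2 CPM in SMARCB1 Dox, and fell by 0.35 on the log2 scale (edgeR adjusted p = 0.0124). NRARP, a feedback target of Notch, fell by 0.39 (edgeR adjusted p = 0.0456), a call that held in 3 of 13 alternatives. DTX1, the other gene of that list, had too few reads to be tested. HES1, HES4, NOTCH1 and NOTCH2 were thus higher, and NRARP and RBPJ lower, in SMARCB1 Dox.

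For the GFP line 0 of the 104 list genes were called. The contrast of the Dox effects called 10 of them, 7 higher and 3 lower (9.62%, against 4.71% of all genes). Between the DMSO groups 27 list genes were higher and 32 lower in the SMARCB1 line (56.7%, against 32% of all genes). Some differences in pathway input, named after their values were seen, were large. BMP7 stood at 0.103 and 0 CPM in SMARCB1 DMSO and at 73.4 and 79.2 CPM in GFP DMSO, and the Notch ligand JAG1 at 5.08 and 6.07 CPM against 0.0888 and 0.104 CPM. Most BMP ligands went the other way from BMP7, with 6 of the 8 tested called higher in SMARCB1 DMSO and 1 lower. BMP4, the ligand with the most reads, was among the higher ones, at 746.2 and 648.2 CPM against 585.3 and 500.9 CPM. Of the 6 Notch ligands tested, 1 was called higher (JAG1) and 2 lower. All 3 Notch receptors tested were lower in SMARCB1 DMSO, with log2 fold changes of −0.37, −0.84 and −0.77, the same groups in which HES1 was higher. The BMP target DLX3 was lower there by 4.01 ± 0.137 on the log2 scale, beside ID4.

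The plot of fold changes with each library of the SMARCB1 line left out shows how far the member values rest on single libraries.

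**Figure D5:**
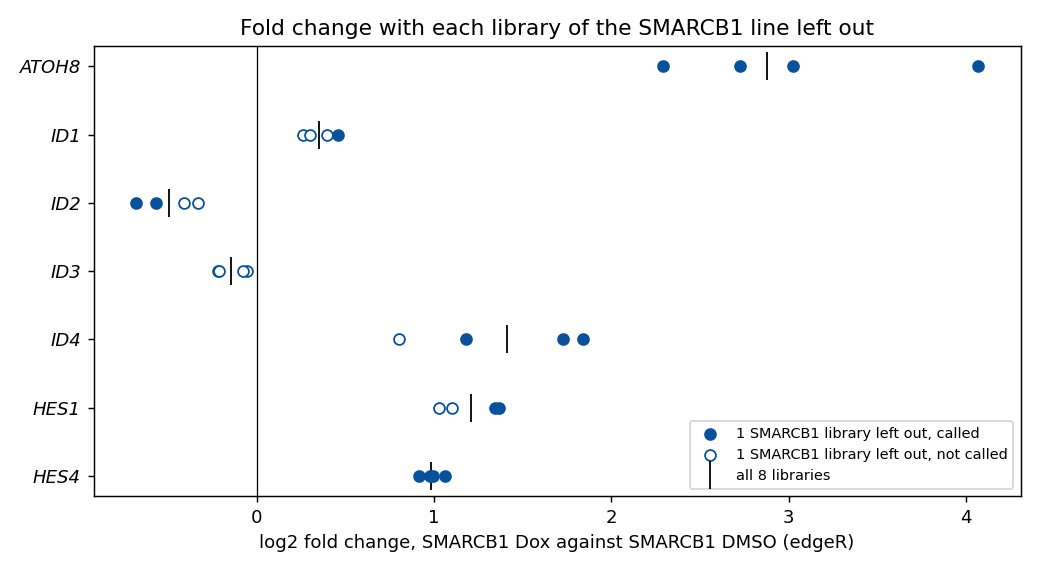
Log2 fold change between SMARCB1 Dox and SMARCB1 DMSO (edgeR) with all 8 libraries (vertical ticks) and with each of the 4 SMARCB1 libraries left out in turn (circles, filled where called at an adjusted p under 0.05). HES4 stays within 0.92 to 1.06 and is called each time, ATOH8 goes from 2.29 to 4.07 and is called each time, and ID2, ID4 and HES1 each lose the call in at least 1 of the fits.

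ATOH8 and HES4 were called in all 13 alternatives of this comparison, with log2 fold changes of 2.29 to 4.07 and 0.92 to 1.08. The highest ATOH8 value came without SMARCB1 DMSO replicate 2 and the lowest without SMARCB1 DMSO replicate 1, the library with 3 counts. ID4 was called in 12 of 13, ID2 in 11 and HES1 in 10. HES1 lost the call without SMARCB1 DMSO replicate 1, without SMARCB1 Dox replicate 1 and with DESeq2, and ID2 without SMARCB1 DMSO replicate 2 or SMARCB1 Dox replicate 1. ID1, not called with all libraries, was called in 3 of 13. Without SMARCB1 Dox replicate 1, fewer members and fewer list genes were called. Calls over all genes also fell in that fit, and whether the loss was larger for these genes was not tested.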

How the data were processed

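Total RNA of 8 libraries was sequenced. The deposited files hold unnormalized counts of reads for each gene. The authors aligned with STAR and counted with HTSeq on hg38 and GENCODE v42, over exons in intersection-strict mode. Versions and the strand option are not given in the sources used here. The labels name a ribosome profiling library kit and the study's methods a directional RNA kit, so the library chemistry is uncertain. The 5 entries that name no gene held 27.0% to 29.3% of the reads of a library and were left out. Symbols, positions and exon lengths came from GENCODE v44 on GRCh38, matched by Ensembl identifier for 62625 of 69215 genes.

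Counts were fitted with edgeR 4.0.16 (R 4.3.3), default filterByExpr, TMM factors, 1 mean per group over all 8 libraries, a quasi-likelihood test and Benjamini-Hochberg adjustment over 15931 genes. Standard errors are the absolute log2 fold change divided by the root of F. CPM use the TMM-scaled library size. DESeq2 1.42.0, library totals, no filter, only the 4 libraries compared, a replicate block and each library left out were the alternatives. Likeness used log2 CPM with a prior count of 2. In counts simulated for 15931 genes, 200 of them drawn at random and changed, 68.5% of 2-fold and 53.5% of 1.5-fold changes were recovered between the SMARCB1 groups. In these runs 11 and 10 unchanged genes were called as well. The rates were not split by level, so they do not describe genes with few reads.

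Libraries of a group differed by more than sampling noise, so none was counted as a copy. The chi-square per degree of freedom was 21.9 in SMARCB1 DMSO, 13 in SMARCB1 Dox, 8.01 in GFP DMSO and 9.51 in GFP Dox. The main fit shared 1 estimate of the spread across these unequal groups, and the fit with only the 4 libraries compared did not. PCR can copy a molecule many times, so the intervals and floors cover counting error alone. The members and the gene lists were chosen with earlier results of these data known. The lists group genes by their known role. Genes named from them were up to 4 called genes of each list with the largest change in the SMARCB1 line at a mean of 1 CPM or more, all genes of lists of at most 4, and the BMP and Notch receptors with the highest level per length, with exceptions said in the text. Sequences came from RefSeq (promoter entries for 8 of the 9 members) and, for the ATOH8 primers, from the study's primer table, placed on GENCODE v44 transcripts.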

Additional observations from a re-analysis of the deposited data

Results flagged for a closer look

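In the edgeR contrast of the Dox effects themselves, the SMARCB1 line differed from the GFP line for 3 of the 7 bHLH factor genes tested. Over all genes tested, 4.71% were called in this contrast. The members were picked with these values in view, so nothing is read from their share. The difference (SMARCB1 line minus GFP line, log2) was 3.27 for ATOH8, 1.38 for HES4 and 1.34 for ID4. The ATOH8 difference was no longer called without GFP DMSO replicate 2 or GFP Dox replicate 2, HES4 without GFP Dox replicate 1, and ID4 without SMARCB1 DMSO replicate 1 or SMARCB1 Dox replicate 2 or with DESeq2. ATOH8 rests on 8 to 15 counts in each GFP library.

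Of the 104 pathway genes tested, 10 differed in the same contrast (9.62%, against 4.71% of all genes). The lists were put together with earlier results of these data known, so this share is a description. Higher differences were found for ENG at 3.96, FSTL1 at 1.53, FSTL3 at 1.18, KAT2B at 1.13, DTX3L at 0.75, BHLHE40 at 0.62 and NOTCH1 at 0.51. Lower ones were found for BMP6 at −1.09, BAMBI at −1.03 and BHLHE41 at −0.56. ENG, FSTL1, DTX3L, BMP6, BAMBI and BHLHE41 were called in all 12 alternatives of this contrast, FSTL3 in 10, KAT2B and BHLHE40 in 9, and NOTCH1 in 6.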

How the results depend on the processing

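No called member turned its direction under any alternative, nor did any called list gene among those chosen by the rule for named genes. The alternatives gave only counts for the other list genes, RBPJ, BMP4, BMP7 and JAG1 included. With each library left out in turn, the number of members called between SMARCB1 Dox and SMARCB1 DMSO went from 3 to 5 (5 with all libraries) and that of list genes from 18 to 33 (34), both lowest without SMARCB1 Dox replicate 1. For the difference of the Dox effects, 7 to 16 list genes were called (10 with all libraries), most without SMARCB1 DMSO replicate 1. Between the DMSO groups, 3 to 5 members were called (5), fewest without GFP DMSO replicate 1, where ID2 and HES1 lost the call. Calls over all genes also changed in these fits, and not always in the same way. For the SMARCB1 Dox effect they too were lowest without SMARCB1 Dox replicate 1. For the difference they fell without SMARCB1 DMSO replicate 1, where more list genes were called. Between the DMSO groups they were lowest without GFP DMSO replicate 2, where no member lost its call. Fits that leave 1 library in a group take it to vary like the others, so these counts are descriptions only. The ATOH8 value between the DMSO groups was 0.12 without SMARCB1 DMSO replicate 1 and −1.65 without replicate 2.

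Replicate numbers were shared by the groups but nothing ties them to a culture or day, and deviations of same-numbered libraries correlated at 0.0309 to 0.148. With the replicate number as a block, members called were 6 and 4 for the SMARCB1 Dox effect and the difference, where ID1 and ID2 were added, and list genes called for the difference were 16. The block gave 3149 genes in all for the SMARCB1 Dox effect and 1282 for the difference, in place of 2234 and 750.

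DESeq2 called 4, 0, 2 and 5 members for the SMARCB1 Dox effect, the GFP Dox effect, the difference and the DMSO groups. Over all genes it called 1860, 0, 684 and 4381 in the same order. Scaling to library totals moved the median over all genes (log2) from −0.004 to 0.088 in the SMARCB1 line and from 0.015 to −0.101 between the DMSO groups. It split the calls into 1986 higher and 497 lower, in place of 1327 and 907, for the SMARCB1 Dox effect, 670 and 159, in place of 489 and 261, for the difference, and 1732 and 3658, in place of 2600 and 2505, between the DMSO groups. No member changed direction under it. Depth limits ATOH8 and HES1 in both lines, with 8 to 15 and 8 to 20 counts in each GFP library. It also limits ID4 in the SMARCB1 line, and HEY1 and HEY2 throughout.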
